A study of Mus musculus with 9 samples.

Results

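8 genes of amyloid precursor processing were followed through an RNA-sequencing experiment on BV-2 cells, an immortalised mouse microglial line, namely the precursor App and its relative Aplp2, the α-secretases Adam10 and Adam17, the β-secretase Bace1, and the γ-secretase genes Psen2, Ncstn and Aph1a. They were taken by symbol, and all 8 were found among the 12413 symbols of the count table. All 8 also passed the filter on low counts, which kept 10413 genes for testing. Bace1 was chosen by its counts, which are above 0 in the BHB group alone, so its values are described here with no test. The Control group (n = 3) received PBS, the Medium group (n = 3) received the bacterial endotoxin LPS at 1 µg/mL, with PBS in place of BHB in the study's account, and the BHB group (n = 3) received the same LPS with BHB, the ketone body R-3-hydroxybutyric acid, at 1.5 mM. Doses are those of the study's methods. LPS was thus common to the Medium and BHB groups, no library received BHB without LPS, and the exposure time of the sequenced cells was not given in the sources used here. All libraries came from 1 cell line. The study's statistics section speaks of independent biological replicates for its data in general, but how the sequenced replicates were set up is not described, so that the p-values rest on a spread between libraries that may be technical in part.

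Amyloid precursor protein is a membrane protein that is cut in sequence. An α-secretase cuts within the amyloid-β stretch and releases a soluble ectodomain, whereas BACE1 cuts at the start of that stretch. The membrane stump left by either enzyme is then cut by γ-secretase, a complex of a presenilin as catalytic subunit, nicastrin, an APH1 protein and the presenilin enhancer encoded by Psenen. Only the route that begins with BACE1 yields amyloid-β. In macrophages and microglia the same enzymes also shed or cut other surface proteins, among them TNF, its receptors, TREM2 and the CSF1 receptor.

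Library totals ran from 23411672 to 32767278 counts. The 10 most abundant genes took 8.82% to 9.03% of the counts in Control, 13.2% to 14.9% in Medium and 10.3% to 10.9% in BHB. Medium replicate 3 stood apart from its group. A chi-square test of counts over genes, divided by its degrees of freedom, gave 32.5 and 28.7 for this library set against Medium replicates 1 and 2, and 4.29 for those set against each other. Where leaving it out changes a call named here, or a count of calls by over 1.5 times, the value without it is therefore given beside the result. All 12 macrophage and microglial marker genes had a row, with a summed level of 3260 to 3432 CPM over the Control libraries, 2295 to 2967 over Medium and 3097 to 3317 over BHB. The homeostatic microglial markers P2ry12 and Tmem119 were low in every group, at means of 0.726, 0.0651 and 0.196 CPM for P2ry12 and 2.01, 0.356 and 1.85 CPM for Tmem119 in the order Control, Medium, BHB. Levels are given as CPM, the counts scaled to a library of standard size after TMM normalisation, which sets the trimmed mean of the gene-wise ratios between libraries to a common value.

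All 7 tested members differed between Medium and Control, App by a narrow margin, and 4 of them differed the other way between BHB and Medium. In Medium against Control, App and Ncstn were higher and Aplp2, Adam10, Adam17, Psen2 and Aph1a were lower, so that 7 of 7 members passed an adjusted p of 0.05 in edgeR's quasi-likelihood test with Benjamini-Hochberg adjustment over all genes. Of all tested genes, 72.6% passed in this comparison, 36.3% higher and 36.3% lower. All 7 also showed no overlap between the Control and Medium libraries, as did 75.1% of tested genes. In BHB against Medium, Aplp2, Adam10, Adam17 and Aph1a were higher and 0 members were lower, also at an unadjusted p under 0.05 and with DESeq2 or limma-voom, where 66.9% of all tested genes passed, 33.2% higher and 33.6% lower, and the same 4 members, against 68% of tested genes, did not overlap. In BHB against Control, Ncstn was higher and Psen2 was lower, where 66.7% of all tested genes passed, 33.4% higher and 33.3% lower. The libraries of BHB and Control did not overlap for 5 of 7 members, against 75.3% of tested genes. The Medium libraries enter the first 2 comparisons and the Control libraries the first and the last, so these are not independent of each other. In bulk RNA a change in the share of cells that express a gene and a change per cell cannot be told apart. Lower with LPS and higher again with BHB were 4 of the 7 members, against 21.3% of all tested genes. The same 4 were not called in BHB against Control, against 8.81% of all tested genes that combined the 3 calls. The members were chosen with earlier results of these data known. These shares therefore describe the list and cannot show that the pattern is more common among such genes. Psenen, which was left out of the members, moved the other way (log2 fold changes 1.39 in Medium against Control and -1.02 in BHB against Medium). Without any 1 of Control replicates 1 and 3 or Medium replicates 1 and 2, App was no longer called in Medium against Control, which left 6 of 7 members. Without Medium replicate 3 the calls of the first 2 comparisons held for all 7 members, while App and Adam17 joined Ncstn as higher in BHB than in Control.

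The sizes of these changes were ordinary for the table in the first 2 comparisons and smaller than usual in BHB against Control. The median absolute log2 fold change of the 7 members was 0.41 in Medium against Control, beside 0.46 over all tested genes, and 0.32 beside 0.38 in BHB against Medium. In BHB against Control it was 0.13 beside 0.38. Scaling by library totals alone instead of TMM moved the median of all genes by -0.27 in Medium against Control, by 0.13 in BHB against Medium and by -0.14 in BHB against Control, so that small differences are relative to the bulk of the transcriptome. Over all genes, TMM gave 3777 calls higher and 3784 lower in Medium against Control, 3461 and 3503 in BHB against Medium, and 3478 and 3470 in BHB against Control, where library totals alone gave 2276 and 5375, 4296 and 2601, and 2529 and 4414.

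**Figure D1:**
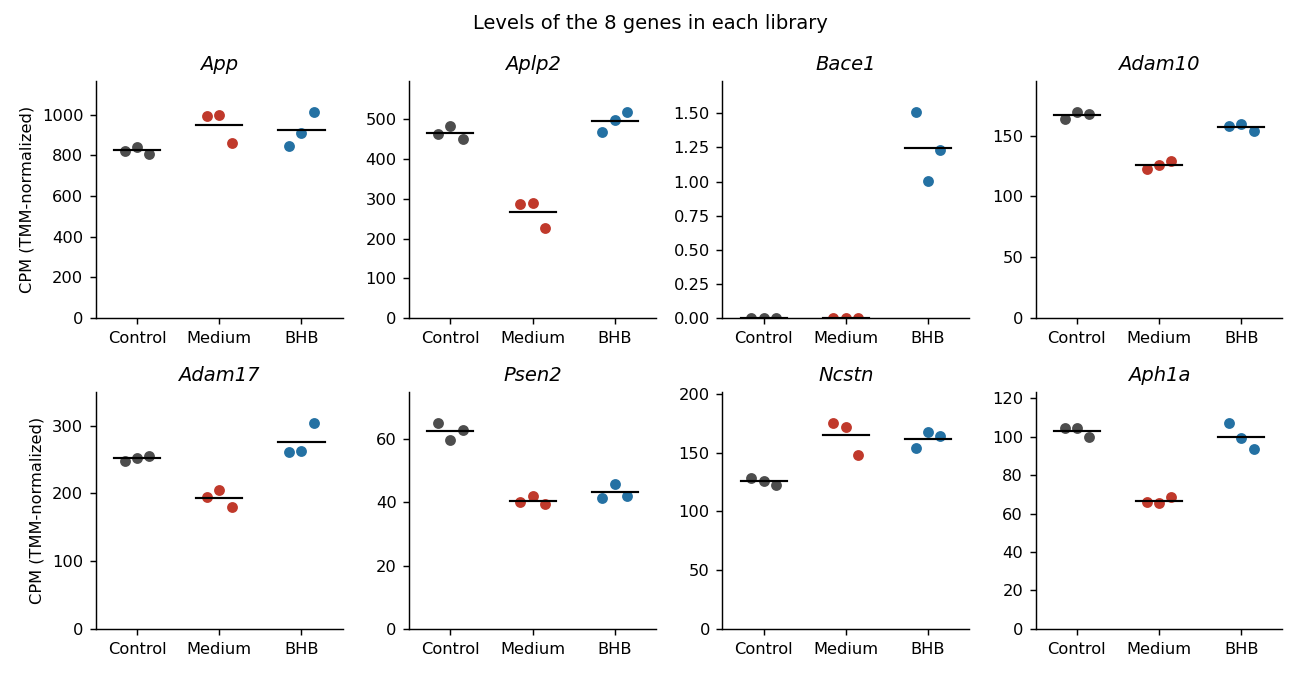
Level of each of the 8 genes in CPM (vertical axes, linear, from 0) in every library of the Control, Medium and BHB groups. Points are libraries and bars are group means (n = 3). Aplp2, Adam10, Adam17 and Aph1a dip in Medium with no overlap with either other group, Psen2 stays low in BHB, Ncstn stays high in BHB, and Bace1 has points above 0 only in BHB.

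The 300 bases around the transcription start were read for the 4 genes that fell and rose again and for Ncstn, which moved the other way with LPS, so that the sequence upstream of members that moved together can be compared. The windows come from RefSeq on build GRCm38.p6, run from 250 bases before to 50 bases after the start, and were matched for 7 of the 8 members. They lie at chr9:31211799-31212098 on the minus strand for Aplp2, chr9:70678732-70679031 on the plus strand for Adam10, chr12:21373583-21373882 on the minus strand for Adam17, chr3:95893671-95893970 on the plus strand for Aph1a and chr1:172082700-172082999 on the minus strand for Ncstn. Each is written 5′ to 3′ along the gene, with matches to the GC box GGGCGG, the ETS core CCGGAA, the hypoxia response core ACGTG and the CCAAT box CCAAT in capitals on either strand.
Aplp2: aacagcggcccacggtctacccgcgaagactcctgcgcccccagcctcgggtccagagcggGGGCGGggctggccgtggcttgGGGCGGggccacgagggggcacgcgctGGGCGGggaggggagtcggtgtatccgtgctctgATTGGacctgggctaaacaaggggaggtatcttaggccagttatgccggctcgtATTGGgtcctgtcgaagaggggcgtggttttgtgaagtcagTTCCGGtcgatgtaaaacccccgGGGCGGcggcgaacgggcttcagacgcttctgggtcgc
Adam10: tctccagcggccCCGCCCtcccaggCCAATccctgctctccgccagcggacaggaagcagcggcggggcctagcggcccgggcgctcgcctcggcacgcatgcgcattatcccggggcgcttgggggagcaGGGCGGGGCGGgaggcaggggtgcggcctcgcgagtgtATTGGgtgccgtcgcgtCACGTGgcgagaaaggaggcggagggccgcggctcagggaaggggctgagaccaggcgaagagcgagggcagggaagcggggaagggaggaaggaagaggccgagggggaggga
Adam17: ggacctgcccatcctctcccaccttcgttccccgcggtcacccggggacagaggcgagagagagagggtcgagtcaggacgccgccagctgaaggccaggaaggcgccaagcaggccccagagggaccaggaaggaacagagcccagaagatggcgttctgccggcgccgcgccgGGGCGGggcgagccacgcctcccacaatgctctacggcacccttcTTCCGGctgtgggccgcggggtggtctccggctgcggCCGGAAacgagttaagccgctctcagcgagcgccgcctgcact
Aph1a: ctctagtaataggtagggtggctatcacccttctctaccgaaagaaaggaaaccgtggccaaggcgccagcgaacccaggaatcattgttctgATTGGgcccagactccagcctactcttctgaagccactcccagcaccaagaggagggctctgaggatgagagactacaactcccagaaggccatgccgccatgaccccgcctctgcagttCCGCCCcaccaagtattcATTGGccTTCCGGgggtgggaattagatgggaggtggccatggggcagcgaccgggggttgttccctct
Ncstn: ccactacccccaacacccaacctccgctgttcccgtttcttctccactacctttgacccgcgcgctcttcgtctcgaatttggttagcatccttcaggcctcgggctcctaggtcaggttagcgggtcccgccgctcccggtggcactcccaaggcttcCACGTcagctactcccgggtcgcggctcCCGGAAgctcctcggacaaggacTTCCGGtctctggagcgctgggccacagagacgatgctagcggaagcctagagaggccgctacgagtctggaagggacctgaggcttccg

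The GC box, bound by SP-family factors, was found in all 4 windows of the genes that fell and rose, with 4 matches for Aplp2, 3 for Adam10, 1 for Adam17 and 1 for Aph1a, and with 0 for Ncstn. It was also found in the windows of App and of 1 of the Psen2 starts, which did not share that pattern, and in 35.7% of all 32851 windows. The windows of Aplp2, Adam10, Adam17 and Aph1a were 67%, 73.3%, 70% and 58% GC, and that of Ncstn 63.3%, beside a median of 52.7% over all windows. The shares over all windows given here are not matched for GC content. The ETS core was found 1 time for Aplp2, 1 for Aph1a, 2 for Adam17 and 2 for Ncstn, and in 14.9% of all windows. CCAAT was found 2 times each for Aplp2, Adam10 and Aph1a, and in 37.4% of all windows. ACGTG was found 2 times for Adam10, both within the same palindrome, 1 time for Ncstn and 2 times in the window of 1 of the Psen2 starts, and in 19.6% of all windows. The 3 GC boxes of Adam10 include 2 that overlap. No window of the 7 members held the NF-kB consensus, the AP-1 site TGANTCA or the cAMP response element TGACGTCA, which were found in 8.46%, 7.81% and 1.79% of all windows. Matches are descriptions of letters in these windows.

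Of the substrates, App encodes the amyloid precursor protein and lies at chr16:84949685-85173766 on the minus strand of GRCm38 (ENSMUSG00000022892.11). It was counted 21229, 26346 and 22403 times in Control, 28683, 23719 and 22516 times in Medium and 24061, 28087 and 27943 times in BHB. In CPM the means were 824 ± 15.6 in Control, 949 ± 78.0 in Medium and 923 ± 84.5 in BHB (SD, n = 3). Medium replicates 1 and 2 were high at 993 and 996 CPM, while Medium replicate 3 at 859 lay nearer to Control, and the BHB libraries spread from 845 to 1013 CPM. All Medium and all BHB libraries were above all Control libraries, and Medium and BHB overlapped. App was 1.152-fold higher in Medium than in Control (log2 fold change 0.20, SE 0.0755, edgeR adjusted p = 0.0245).

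This call rested on few libraries. It was lost without Control replicate 1 (edgeR adjusted p = 0.0593), Control replicate 3 (0.0739), Medium replicate 1 (0.0821) or Medium replicate 2 (0.0892), and the direction turned when only library totals were used for scaling (log2 fold change -0.07, adjusted p = 0.298). Without Medium replicate 3 the difference was 0.27 on the log2 scale with an edgeR adjusted p of 0.000265. BHB and Medium were not told apart for App (log2 fold change -0.04, interval of 2 SE on either side -0.19 to 0.11, edgeR adjusted p = 0.653, and -0.11 with an adjusted p of 0.0995 without Medium replicate 3). Against Control, App in BHB stood at a log2 fold change of 0.16 (edgeR adjusted p = 0.0679), which passed without Medium replicate 3 (0.00799) and without BHB replicate 1 (0.0233). It also passed with DESeq2 on all libraries (adjusted p = 0.0434) and in an edgeR fit of the 2 compared groups alone (0.0109).

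Aplp2, a close relative of App that is cut by the same secretases, lies at chr9:31149557-31211815 on the minus strand (ENSMUSG00000031996.17) and showed the widest swing of the tested members. Its level was 463, 482 and 450 CPM in Control, 286, 290 and 227 CPM in Medium and 469, 497 and 518 CPM in BHB. Every Medium library was below every other library, and Control and BHB overlapped. The level in Medium was 1.74-fold below Control (log2 fold change -0.80, SE 0.0823, edgeR adjusted p = 6.62e-07) and the level in BHB was 1.85-fold above Medium (log2 fold change 0.89, SE 0.0823, edgeR adjusted p = 3.4e-07). Without Medium replicate 3, the lowest library, these were -0.69 and 0.78 on the log2 scale. BHB against Control gave 0.09 (interval -0.07 to 0.25, edgeR adjusted p = 0.345).

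Because both substrates were counted in the same libraries, their ratio does not depend on scaling. There were 0.564 ± 0.00865 Aplp2 counts per App count in Control, 0.281 ± 0.0151 in Medium and 0.537 ± 0.0226 in BHB (SD, n = 3). The 3 Medium ratios, from 0.264 to 0.292, lay below all others, and the BHB ratios, from 0.512 to 0.554, lay just below the Control ratios, from 0.557 to 0.574. Each pair of groups was separate, with an exact two-sided permutation p of 0.1, the smallest that 3 against 3 libraries allows (adjusted p = 0.125 over the 15 comparisons of count ratios). The remaining relative, Aplp1, was near the bottom of the table at 2.18 ± 0.586, 2.37 ± 0.457 and 2.27 ± 0.451 CPM and was called in no comparison.

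Of the α-secretases, Adam10, which is the main constitutive α-secretase in neurons and also cuts Notch receptors, lies at chr9:70678997-70780229 on the plus strand (ENSMUSG00000054693.14). It stood at 163, 169 and 168 CPM in Control, 123, 126 and 129 CPM in Medium and 158, 159 and 154 CPM in BHB. The 3 groups did not overlap, and BHB lay between the others but close to Control. Adam10 was 1.33-fold lower in Medium than in Control (log2 fold change -0.41, SE 0.0495, edgeR adjusted p = 3.32e-06) and 1.25-fold above Medium in BHB (log2 fold change 0.32, SE 0.0494, edgeR adjusted p = 4.94e-05). BHB against Control gave -0.09 (interval -0.19 to 0.01, edgeR adjusted p = 0.124), and scaling by library totals alone made it -0.23 with an adjusted p of 0.00293.

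Adam17, the enzyme that releases TNF from the cell surface, lies at chr12:21323509-21373632 on the minus strand (ENSMUSG00000052593.16). Its level was 248, 253 and 255 CPM in Control, 194, 206 and 180 CPM in Medium and 262, 262 and 305 CPM in BHB. Here too the groups were separate, with BHB above Control and BHB replicate 3 the highest library. The fall with LPS was 1.31-fold (log2 fold change -0.38, SE 0.0683, edgeR adjusted p = 0.000143) and the rise with BHB was 1.43-fold (log2 fold change 0.52, SE 0.0683, edgeR adjusted p = 1.18e-05). BHB against Control gave 0.13 (edgeR adjusted p = 0.102), with adjusted p = 0.0305 without Medium replicate 3 and 0.0357 in a fit of the 2 compared groups alone. Iah1, whose exons share 311 bases with the end of Adam17 on the opposite strand, moved the other way in both comparisons (log2 fold changes 0.66 and -0.65, edgeR adjusted p = 1.05e-05 and 1.63e-05).

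The ratio of Adam10 to Adam17 counts was 0.662 ± 0.00633 in Control, 0.653 ± 0.0561 in Medium and 0.572 ± 0.0590 in BHB. Medium overlapped Control only through Medium replicate 3, at 0.717, while Medium replicates 1 and 2, at 0.632 and 0.611, lay below every Control ratio. Without that library the log2 fold changes with LPS were -0.43 for Adam10 and -0.33 for Adam17, beside -0.41 and -0.38 with all libraries. The BHB ratios lay below those of both other groups. The BHB mean was set largely by BHB replicate 3, at 0.504, while BHB replicates 1 and 2 were at 0.605 and 0.608. The latter are close to Medium replicate 2, and the exact permutation p of BHB against either group was 0.1 (adjusted p = 0.125).

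The β-secretase gene Bace1 lies at chr9:45838580-45864399 on the plus strand (ENSMUSG00000032086.12). It was listed at 0 in all 3 Control and all 3 Medium libraries and at 43, 31 and 34 counts in the BHB libraries, which is 1.51, 1.01 and 1.23 CPM (mean 1.25 ± 0.252, SD, n = 3). The pooled level in BHB was 1.24 CPM, with an exact 95% counting interval of 1.02 to 1.501 that covers counting error only, and this places Bace1 above 6.78% of tested genes. If the listed zeros are counts of 0, a total of 0 allows a limit of 3 counts over a group. The pooled level in BHB was 32.7 times that limit for Medium and 35.2 times that limit for Control. These multiples leave out the counting error of the BHB level and are not lower bounds on the fold. These values chose the gene and are given as a description.

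Few symbols shared this pattern. At 0 in all Control and Medium libraries and at 10 counts or more in every BHB library were 4 genes, which were picked out after their values were seen, namely Bace1, Hspa1b (14, 13 and 30 counts), Kcnk1 (27, 14 and 23) and Upk3b (37, 15 and 12). Hspa1b encodes an inducible heat-shock protein and Kcnk1 a potassium channel. No gene had the reverse pattern, 0 in BHB with 10 or more in every other library. Across the table the value 0 occurs 12323 times, 1 occurs 335 times and 2 occurs 1675 times. Low counts may thus have been altered before deposit, by a rule not given in the sources used here. If counts were set to 0, the multiples given above for Bace1 do not hold.

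Genes that overlap Bace1 and markers of other cell types were set beside it. Exons of Bace1 share 975 bases, 15.4% of their length, with Rnf214 on the opposite strand, 951 bases, 15%, with Gm49338, a gene model of the TEC type, and 135 bases with the antisense gene Gm16536, which also lie on the opposite strand and were not analysed here. Rnf214 averaged 54.7, 77.9 and 70.2 CPM in the Control, Medium and BHB groups, which is not the order of Bace1. Neuronal markers, of which 5 of 8 had a row, summed to 10.04 to 14.8 CPM per Control library, 10.7 to 16.8 per Medium library and 22.4 to 25.4 per BHB library. Most of this sum was Syn1, a synaptic vesicle gene, at 12.2, 12.3 and 23.0 CPM, while Tubb3, Syp, Nefl and Map2 each averaged 0.630 CPM or less in every group. Astrocyte markers, 2 of 6 with a row, were at 0.471 CPM or less in sum, oligodendrocyte markers, 4 of 6 with a row, at 5.37 to 8.18 CPM, and fibroblast markers, 2 of 6 with a row, at 0.208 CPM or less. The part of these genes in the Bace1 counts was not tested. The other β-secretase homologue, Bace2, was not analysed here.

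Among the γ-secretase genes, Psen2, which encodes a catalytic presenilin, lies at chr1:180227004-180263438 on the minus strand (ENSMUSG00000010609.15) and was lower in both LPS-treated groups than in Control. It stood at 65.1, 59.6 and 62.7 CPM in Control, 40.2, 41.9 and 39.3 CPM in Medium and 41.3, 45.8 and 42.1 CPM in BHB. All Control libraries were above all others, and Medium and BHB overlapped. The level was 1.54-fold lower in Medium than in Control (log2 fold change -0.63, SE 0.0663, edgeR adjusted p = 8.57e-07) and 1.45-fold lower in BHB than in Control (log2 fold change -0.54, SE 0.0658, edgeR adjusted p = 5.46e-06). BHB against Medium gave 0.09 (interval -0.04 to 0.22, edgeR adjusted p = 0.248), and 0.22 with an adjusted p of 0.0129 when only library totals were used for scaling.

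Ncstn encodes nicastrin, the substrate-receiving subunit, and lies at chr1:172066013-172082795 on the minus strand (ENSMUSG00000003458.12). It was higher in both LPS-treated groups than in Control, at 129, 126 and 122 CPM in Control, 176, 172 and 148 CPM in Medium and 154, 168 and 164 CPM in BHB. All Medium and BHB libraries were above all Control libraries, and Medium replicate 3 was the lowest of the LPS-treated libraries. The fold was 1.32 in Medium over Control (log2 fold change 0.40, SE 0.0659, edgeR adjusted p = 7.76e-05) and 1.29 in BHB over Control (log2 fold change 0.37, SE 0.0659, edgeR adjusted p = 0.000198). BHB against Medium gave -0.03 (interval -0.16 to 0.10, edgeR adjusted p = 0.702), and -0.10 without Medium replicate 3 (0.0668). Copa, whose exons share 195 bases with Ncstn on the opposite strand, rose by less (log2 fold change 0.17, edgeR adjusted p = 0.0233), and this was lost without Control replicate 1 (0.0668), Control replicate 3 (0.0509), Medium replicate 1 (0.0996) or Medium replicate 2 (0.0872).

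Aph1a, which encodes an APH1 scaffold subunit of the complex, lies at chr3:95893969-95898288 on the plus strand (ENSMUSG00000015750.15). It was at 105, 104 and 99.9 CPM in Control, 66.1, 65.6 and 68.4 CPM in Medium and 107, 99.4 and 93.6 CPM in BHB. The Medium libraries lay close together and below all others, and Control and BHB overlapped. Aph1a was 1.54-fold lower in Medium than in Control (log2 fold change -0.63, SE 0.0604, edgeR adjusted p = 3.16e-07) and 1.501-fold above Medium in BHB (log2 fold change 0.59, SE 0.0604, edgeR adjusted p = 9.61e-07). BHB against Control gave -0.04 (interval -0.16 to 0.08, edgeR adjusted p = 0.556), and -0.18 with an adjusted p of 0.0354 under library totals alone. Its exons share 445 bases, 12.9% of their length, with Car14 on the opposite strand, which was not analysed here. The paralogue Aph1b was at 6.48 ± 0.672, 6.02 ± 1.44 and 7.01 ± 0.871 CPM and was called in no comparison with all 9 libraries, while without Medium replicate 3 it passed as higher in BHB over Medium (log2 fold change 0.40, edgeR adjusted p = 0.0443). Its near-identical neighbour Aph1c was not analysed here, so the Aph1b counts are uncertain.

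Psenen, the remaining kind of γ-secretase subunit and not among the 8 genes, moved more than Psen2, Ncstn or Aph1a with LPS and in the opposite direction to Aph1a. It stood at 21.3, 23.1 and 22.2 CPM in Control, 64.2, 59.4 and 51.4 CPM in Medium and 27.2, 32.3 and 26.7 CPM in BHB, with no overlap between any pair of groups. It was 2.63-fold higher in Medium than in Control (log2 fold change 1.39, SE 0.0951, edgeR adjusted p = 7.87e-09), 2.03-fold below Medium in BHB (log2 fold change -1.02, edgeR adjusted p = 2.85e-07) and still 1.29-fold above Control in BHB (edgeR adjusted p = 0.00338). U2af1l4, whose exons share 119 bases with Psenen on the opposite strand, was higher with LPS as well (log2 fold change 0.94, edgeR adjusted p = 0.000523) but stood at 0.30 in BHB against Medium (adjusted p = 0.153, and 0.0112 without Medium replicate 2).

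**Figure D2:**
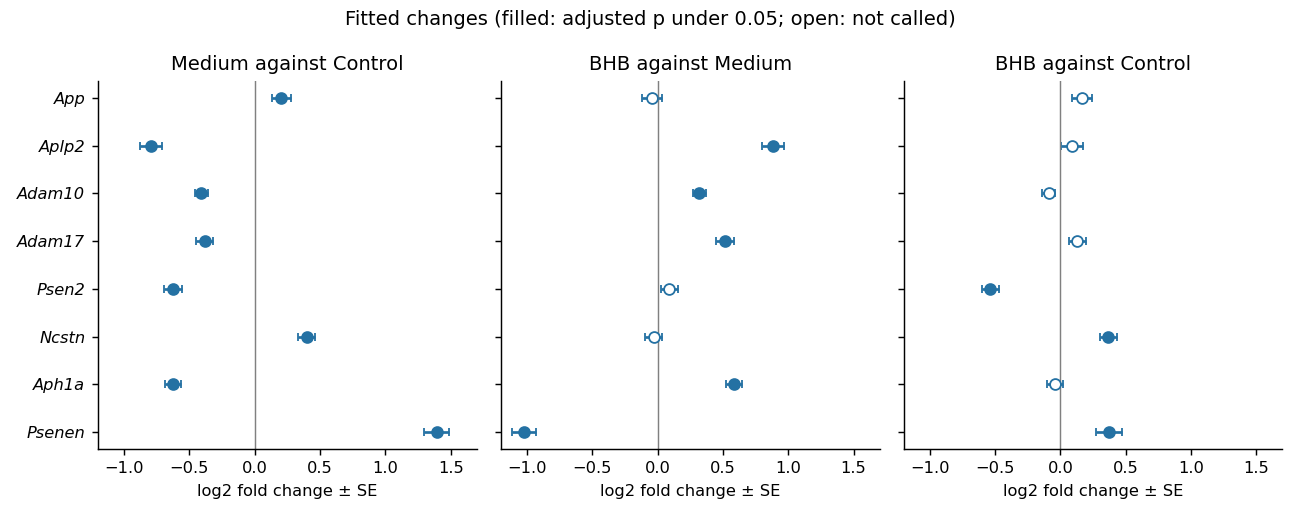
Fitted log2 fold changes ± SE (horizontal axes) for the 7 tested members and for Psenen in the 3 comparisons, from 1 edgeR fit of 9 libraries. Filled points passed an adjusted p of 0.05, and open points did not. Aplp2, Adam10, Adam17 and Aph1a lie left of 0 in Medium against Control and right of 0 in BHB against Medium, and Psenen lies the other way round.

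The subunit counts of γ-secretase thus changed relative to one another within single libraries. Nicastrin, APH1 and the presenilin enhancer are all needed in each complex, and Ncstn was taken as the common denominator. Per Ncstn count there were 0.820 ± 0.00629 Aph1a counts in Control, 0.406 ± 0.0476 in Medium and 0.620 ± 0.0675 in BHB (SD, n = 3), with each group apart from the others. Psen2 gave 0.497 ± 0.0221, 0.246 ± 0.0183 and 0.266 ± 0.00803 counts per Ncstn count, and every Control ratio was above every other ratio, while Medium and BHB overlapped. Psenen gave 0.177 ± 0.00951, 0.353 ± 0.0115 and 0.177 ± 0.0148 counts per Ncstn count, so that the Medium ratios were above all others, while Control and BHB overlapped. Each of these separations carries the smallest exact permutation p of 0.1 (adjusted p = 0.125), and the overlapping pairs gave 0.2 for Psen2 and 1 for Psenen (adjusted p = 0.231 and 1).

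**Figure D3:**
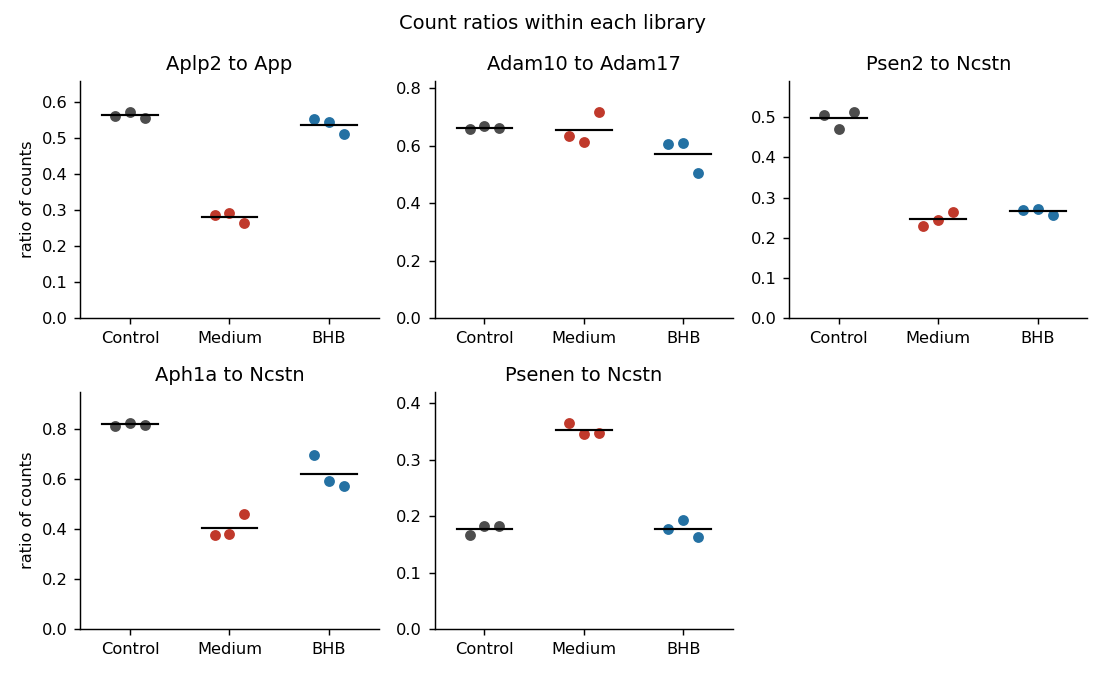
Ratio of the counts of 2 genes within each library (vertical axes, linear, from 0) for 5 pairs of substrates, α-secretases and γ-secretase subunits. Points are libraries and bars are group means (n = 3). Aplp2 to App and Aph1a to Ncstn dip in Medium, Psenen to Ncstn peaks in Medium, and Psen2 to Ncstn in BHB stays near its Medium value.

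Between genes, levels can be compared only per length. In CPM per kilobase of the principal transcript, the order in Control was App (259), Aplp2 (128), Adam17 (56.7), Ncstn (43.3), Adam10 (36.4), Aph1a (36.0), Psenen (31.4), Psen2 (30.9) and Bace1 (0). Adam10 and Aph1a, and Psenen and Psen2, were neighbours whose libraries overlapped, and the other neighbours did not. In Medium, Psenen (82.4) moved up to the range of Aplp2 (73.7), with overlapping libraries, Ncstn (57.0) lay above Adam17 (43.5), and Psen2 (20.03) was the lowest gene above 0, while in BHB the order returned to App (291), Aplp2 (136) and Adam17 (62.1), then Ncstn (55.8) and Psenen (40.6), with overlapping libraries of Aph1a (35.0) and Adam10 (34.2), and Bace1 at 0.206. The order depends on the length used, for App and for other genes. With all annotated exons merged, Aplp2 (79.1 CPM per kilobase) stood above App (63.4) in Control, and Adam10 (34.0) above Ncstn (31.6). In BHB, Psenen (22.5) then stood below Aph1a (29.0) and Adam10 (32.0), and Ncstn (40.7) above Adam17 (38.6).

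Genes among the 2 most like each tested member over the 9 libraries were found by Pearson's r of log2 CPM. They were Hnrnpll (0.959) and Naca (0.931) for App, Gm2a (0.995) and Hspa8 (0.994) for Aplp2, Nup54 and Hnrnpm (both 0.996) for Adam10, and Arhgap18 (0.983) and Cops3 (0.977) for Adam17. Those for Psen2 were Gmip and Jpt2 (both 0.994), that for Ncstn was S100a13 (0.991), and those for Aph1a were Cenpb (0.995) and Ttc8 (0.991). With 3 groups of 3 libraries such values mostly follow the group means, and between 24 genes for App and 1013 genes for Adam10 exceeded 0.9 among the 10403 compared.

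The wider families were taken as lists, which were described by their counts and medians beside those of all tested genes. Over all tested genes the medians were -0.01 in Medium against Control and 0.00 in BHB against Medium. Of all tested genes, 36.3% were called higher and 36.3% lower in Medium against Control, and 33.2% and 33.6% in BHB against Medium. The lists are short and were not tested as sets, so their counts describe the genes listed and show no trait of a family. Of the 6 proteolytic ADAM genes tested, 3 rose and 2 fell in Medium, the latter being Adam10 and Adam17 themselves, and in BHB against Medium 5 rose and 0 fell in edgeR (medians 0.11 and 0.34), with 0 lower at an unadjusted p under 0.05 and 0 with DESeq2 or limma-voom. Under library totals alone 1 rose and 3 fell with LPS. Adam8, a sheddase of leukocytes, rose with LPS and further with BHB (log2 fold changes 0.97 and 0.36, edgeR adjusted p = 2.9e-09 and 9.26e-05). Adam15 rose with BHB (0.21, edgeR adjusted p = 0.00717), and its value of 0.16 with LPS (edgeR adjusted p = 0.0302) was lost without any 1 of Control replicates 1 to 3 (0.0627, 0.0549 and 0.0809) or Medium replicates 1 and 2 (0.109 each), and under library totals alone it was called in the opposite direction (-0.11, adjusted p = 0.0387).

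Of 9 tested partners that mature or carry ADAM10 or ADAM17, 2 rose and 3 fell with LPS, while 5 rose and 2 fell with BHB (medians -0.25 and 0.18), and without Medium replicate 3 the first pair of counts was 3 and 2, and 1 and 6 under library totals alone, which also made the lower count with BHB 1. Furin, which removes the prodomain of these enzymes, was 5.13-fold higher in Medium than in Control (log2 fold change 2.36, edgeR adjusted p = 9.58e-13) and lower in BHB than in Medium (-0.34, edgeR adjusted p = 0.00035). Rhbdf2, the inactive rhomboid that escorts ADAM17 to the surface, was higher with LPS (0.29, edgeR adjusted p = 0.000629), a call lost under library totals alone (0.774), and higher again with BHB (0.18, edgeR adjusted p = 0.0161), a call lost without BHB replicate 1 (0.0565) or BHB replicate 3 (0.0506). Frmd8, which binds that rhomboid, stood at -0.07 with LPS (edgeR adjusted p = 0.489) and fell with BHB (-0.33, edgeR adjusted p = 0.00297; 0.0635 under library totals alone). Of the metalloprotease inhibitors tested, Timp2 fell with LPS and rose with BHB (-0.93 and 0.54, edgeR adjusted p = 5.33e-08 and 1.98e-05), and Timp1, at 0.268, 1.51 and 0.362 CPM, did the reverse (edgeR adjusted p = 0.000233 and 0.000843).

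The presenilin relatives of the signal peptide peptidase family, 3 tested, all fell with LPS, while 2 rose and 1 fell with BHB (medians -0.30 and 0.23). Sppl2b fell by 1.88 and rose by 1.10 on the log2 scale (edgeR adjusted p = 3.36e-09 and 1.74e-06), Sppl2a, which can cut TNF in the membrane, fell by 0.30 and rose by 0.23 (0.000981 and 0.00764), and Sppl3 fell by 0.25 and by a further 0.50 (0.00588 and 2.87e-05). Of 7 adaptors that bind the App tail, 4 rose and 1 fell with LPS, while in edgeR 0 rose and 2 fell with BHB, or 4 fell without Medium replicate 3 (medians 0.44 and -0.18). Under library totals alone 2 adaptors rose with LPS and 1 fell with BHB. No adaptor was higher with BHB at an unadjusted p under 0.05, and the count was also 0 with DESeq2 and limma-voom. Dab2, an endocytic adaptor, rose by 0.84 and then fell by 0.68 (edgeR adjusted p = 3.1e-08 and 4.29e-07), and Apbb2, of the Fe65 family, rose by 0.28 and fell by 0.22 (0.000579 and 0.00454), with both Apbb2 calls lost under library totals alone (0.867 and 0.185). Numb, also an inhibitor of Notch signalling, fell by 0.66 with LPS (edgeR adjusted p = 3.63e-06) and stood at -0.08 in BHB against Medium (0.378), or at -0.19 without Medium replicate 3 (0.00365).

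Of 14 genes that sort App or Bace1 between membranes, 5 rose and 5 fell with LPS, or 8 and 5 without Medium replicate 3 and 4 and 8 under library totals alone, while 6 rose and 7 fell with BHB (medians 0.09 and -0.04), or 7 and 4 under library totals alone. Vps35, the retromer core subunit, was at 0.08 with LPS (edgeR adjusted p = 0.224; 0.12 and 0.0202 without Medium replicate 3; -0.19 and 0.000959, a call in the opposite direction, under library totals alone) and rose by 0.44 with BHB (edgeR adjusted p = 6.44e-06). Rtn4, a reticulon, rose by 0.43 and fell by 0.37 (edgeR adjusted p = 1.35e-05 and 7.47e-05), and Itm2b, which encodes a membrane protein that binds App, rose by 0.50 and fell by 0.28 (4.16e-05 and 0.00472). Of 8 protease genes listed for a direct or indirect part in amyloid-β breakdown, 2 rose and 5 fell with LPS, while 5 rose and 1 fell with BHB (medians -0.44 and 0.38). The lower count with BHB ranged from 0 to 3. It was 3 without Medium replicate 3, and 2 without Control replicate 1 or with no filter on low counts. It was 0 without Medium replicate 1, BHB replicate 1 or BHB replicate 3, under library totals alone and in a fit of the 2 compared groups alone. Plau, the urokinase gene, fell by 1.10 and rose by 0.63 (edgeR adjusted p = 1.77e-05 and 0.00238). The cathepsin gene Ctsb rose by 0.77 with LPS (edgeR adjusted p = 1.23e-05), and its fall by 0.30 with BHB (0.0224) was lost without Medium replicate 1 (0.0861), Medium replicate 2 (0.104), BHB replicate 1 (0.0792) or BHB replicate 3 (0.0684). That fall was also lost in a fit of the 2 compared groups alone (0.0554) and under library totals alone (0.0872). Ctsd stood at 0.01 and -0.09 (edgeR adjusted p = 0.915 and 0.317), with the second at -0.15 without Medium replicate 3 (0.00941) and the first called as lower, at -0.26, under library totals alone (0.000187).

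Other surface proteins cut by these enzymes in myeloid cells were the largest list. Of 17 tested, 5 rose and 10 fell with LPS, while 9 rose and 5 fell with BHB (medians -0.46 and 0.45), and 3 rose with LPS under library totals alone. Tnf, whose product ADAM17 sheds, averaged 58.9, 1919 and 428 CPM in the Control, Medium and BHB groups, a log2 fold change of 5.03 with LPS (edgeR adjusted p = 1.87e-14) and of -2.16 with BHB (8e-11). Tnfrsf1b, a TNF receptor that is also shed, rose by 3.10 and fell by 0.72 (edgeR adjusted p = 1.87e-14 and 5.88e-08). Lrp1, an endocytic receptor for App, fell by 0.34 and rose by 0.62 (edgeR adjusted p = 0.00212 and 1.27e-05). Thus in Medium, where Tnf was highest, Adam17 was at its lowest of the 3 groups. Of the Notch target genes, 4 of 8 had a row and only Dtx1 passed the filter, at 3.62, 2.42 and 3.41 CPM. Its value of -0.58 with LPS (edgeR adjusted p = 0.0486) was lost without Control replicate 1 (0.173), Control replicate 2 (0.105), Medium replicate 3 (0.172) or any 1 BHB replicate (0.0521 to 0.062). That call was also lost in a fit of the 2 compared groups alone (0.0634).

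Over the 17 other ways of processing, the directions of Aplp2, Adam10, Adam17 and Aph1a in Medium against Control and in BHB against Medium held in every one and all passed the test. Psen2 and Ncstn did so in Medium against Control and in BHB against Control. App is the tested member whose difference between Medium and Control changed sides.

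**Figure D4:**
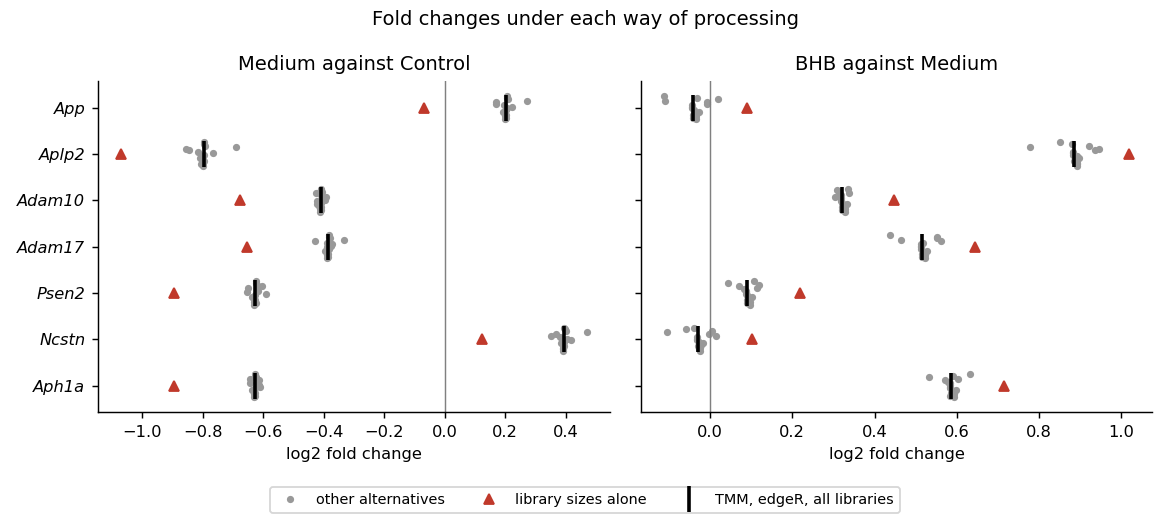
Log2 fold changes of the 7 tested members (rows) under each way of processing (horizontal axes), in Medium against Control and in BHB against Medium. The black mark is the edgeR fit of 9 libraries with TMM, grey points are the other alternatives, and red triangles use library totals alone. Only scaling by library totals moves all members together, to the left in Medium against Control and to the right in BHB against Medium, and it takes App across 0 in both.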

How the data were processed

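RNA from BV-2 cells was sequenced in 9 libraries, 3 per group, and each library's group was taken from its sample title. Accounts of the upstream steps differ. In the study's methods, reads were trimmed with Skewer, checked with FastQC v0.11.2, aligned by strand with STAR v2.7.10a to GRCm38 (GENCODE M21) and assembled with StringTie v2.1.4. In the notes of the submitters, Trimmomatic, HISAT2, StringTie and FastQC 0.11.5 are listed. Which of them made the table is unclear. The values are whole-number counts per gene symbol as deposited by the authors, and the counting step was not given in the sources used here. Of the symbols, 99.2% (12317) were found in GENCODE M21, which supplied positions and overlaps on GRCm38.

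Counts were fitted with edgeR 4.0.16 (filterByExpr, TMM, glmQLFit and glmQLFTest, Benjamini-Hochberg over 10413 genes, adjusted p under 0.05) in 1 fit of all 9 libraries. Overlap between groups was read from the lowest and highest library of each group, with no test. Differences in mean log2 CPM and in mean log2 count ratio were tested with exact two-sided permutation tests. A prior count of 2 was used for log2 CPM. The 17 alternatives were DESeq2 1.42.0, limma-voom (limma 3.58.1), RLE factors, scaling by library totals, no filter, a minimum of 10 counts per library, a fit of only the 2 groups compared, a replicate block, and leaving out each library. The members and gene lists were chosen with earlier results of these data known. The genes named are the members, their paralogues and partner subunits, the up to 3 most abundant tested genes of each list, the 2 genes most like each tested member, and genes whose exons overlap a member. Some genes that this rule takes are not reported here. Overlapping and near-identical genes are uncertain where reads could be shared.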

Additional observations from a re-analysis of the deposited data

How the results depend on the processing

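Of 357 results on the members under an alternative, 335 kept their direction and their side of the threshold, 4 lost the call, 9 gained one and 9 turned direction. For the other named genes the counts were 1000, 40, 9 and 20 of 1069. With a replicate block, genes called were 3733 higher and 3755 lower in Medium against Control, 3429 and 3455 in BHB against Medium, and 3442 and 3422 in BHB against Control, beside 3777 and 3784, 3461 and 3503, and 3478 and 3470 without it, and the block changed no member's call. The deviations of same-numbered libraries from their group means had correlations from -0.0710 to 0.0632 over 9 pairs, so no shared deviation was seen. With 3 libraries per group this cannot settle whether the libraries were paired.

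Leaving out 1 library gave 3564 to 3921 genes higher and 3535 to 4002 lower in Medium against Control, 3155 to 3689 and 3233 to 3693 in BHB against Medium, and 3177 to 3813 and 3179 to 3792 in BHB against Control. Members higher with LPS numbered 1 to 2 and members lower 5. Members higher in BHB against Medium numbered 4 and lower 0, and members higher in BHB against Control numbered 1 to 3 and lower 1. Library totals alone gave 2276 genes and 1 member higher with LPS, and 3 members lower in BHB against Control. DESeq2 gave 2 and the 2 compared groups alone gave 3 members higher in BHB against Control.

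Values that turned direction under library totals alone, in log2 fold change, were for Medium against Control App -0.067, Aplp1 -0.14, Copa -0.097, Ctsd -0.26, Adam15 -0.11 and Vps35 -0.19, of which those of Ctsd, Adam15 and Vps35 passed the test. For BHB against Medium they were App 0.091, Ncstn 0.10, Aplp1 0.060, Numb 0.050 and Ctsd 0.046. For BHB against Control they were Aplp2 -0.050, Adam17 -0.0092, Aplp1 -0.077 and Aph1b -0.026. With the 2 compared groups alone, Ctsd turned to -0.0025 in Medium against Control. Leaving out 1 library turned some values near 0, within ranges of -0.11 to 0.019 for App, -0.10 to 0.015 for Ncstn and -0.22 to 0.066 for Aplp1 in BHB against Medium. In Medium against Control the ranges were -0.057 to 0.32 for Aplp1, -0.29 to 0.063 for Aph1b, -0.11 to 0.00014 for Frmd8 and -0.032 to 0.074 for Ctsd. In BHB against Control they were -0.091 to 0.0045 for Aph1a and -0.13 to 0.25 for Aplp1. The cause was not tested. Depth limits Bace1, Aplp1, Aph1b, Timp1 and Dtx1, whose counts are among the lowest of the named genes.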
